A study of Mus musculus with 12 samples.

Results

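The 2 layers of a mouse uterine co-culture, an epithelial and a stromal one, were compared in the absence of added estrogen. Of the 35556 probe sets, the 21789 that carry a single gene symbol entered the comparison. It compared 6 of the 12 arrays of the series, taken by their labels: the 3 epithelial and the 3 stromal arrays treated with vehicle. The comparison itself and the gene lists below were chosen with earlier results of these data known. Cells came from uteri of CD-1 mice on day 4 of pseudopregnancy and were separated by enzymatic digestion, and the labels name no sort. Epithelial sheets were grown on inserts coated with matrigel, a basement membrane extract, above stromal cells on cover slips. Both layers spent a night in medium with charcoal-stripped serum at 1% and then 2 days with ethanol at 0.01%, after which RNA was taken from each layer separately. The other 6 arrays came from co-cultures given estradiol (E2) at 10 nM in place of ethanol alone. They served to measure the same difference again. They also shared the fit, so they entered the spread behind every p-value under vehicle and the choice among a gene's probe sets. The labels name no transgene or mutant allele in any group. Nothing in them says that the 3 arrays of 1 group stand for different animals or cultures, so the p-values cover the spread of these samples alone, and it may be technical.

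Each value is a log2 signal of one probe set on an Affymetrix Mouse Gene 1.0 ST array. A difference is always epithelial minus stromal on the log2 scale, so that 1 stands for a factor of 2, and the value after ± is its standard error from limma. A gene passed when its p-value from limma, adjusted by Benjamini-Hochberg over all 21789 probe sets with a single gene symbol, was under 0.05. The layers were said not to overlap when the 3 arrays of one all lay on one side of the other 3. This held for 8063 (37.0%) of the 21789 probe sets, so it is common. The epithelial layer was higher in 3228 (14.8%) and the stromal layer in 4835 (22.2%). No test of signal against background was made, and a difference against a layer with a low signal is no ratio of transcripts. In bulk layers, fewer cells of a type and less RNA per cell cannot be told apart.

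Epithelia are sheets of polarized cells that are sealed to each other by tight junctions, held together by cadherins and desmosomes and stiffened by keratin filaments. Fibroblast-like stroma lacks these structures, is embedded in a collagen matrix, and keeps a mesenchymal state under transcription factors of the ZEB, SNAI and TWIST families, which bind E-boxes in promoters of epithelial genes and repress them. In the uterus the layers also signal to each other: stromal growth factors act on epithelial receptors, and epithelial WNT and cytokine ligands act on the stroma. Steroid hormones act on both layers, and on day 4 of pseudopregnancy the mouse uterus prepares for implantation.

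The arrays had similar medians over the single-symbol probe sets, from 7.38 to 7.41, and no 2 were identical. Stromal replicates correlated with each other at 0.992 to 0.996, epithelial replicates at 0.966 to 0.989, and arrays of different layers at 0.931 to 0.965. The median SD of a probe set was 0.182 in the epithelial and 0.0952 in the stromal arrays, although the fit gives both 1 spread. Within the epithelial layer replicate 2 was the farthest from the others by correlation (0.976 with replicate 1 and 0.966 with replicate 3, against 0.989 between those), and replicate 3 differed in its marker levels. The mean of replicate 3 over 15 epithelial marker genes was 10.1, against 11.2 and 11.8 in replicates 1 and 2 and 6.99, 6.89 and 6.75 in the stromal arrays. Its mean over 15 stromal fibroblast markers was 10.9, against 10.3 and 10.0, with 11.1, 11.1 and 11.3 in the stromal arrays.

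The 4 marker genes given for the layers all matched their labels. Krt8, a keratin of simple epithelia, read 12.77, 12.71 and 11.99 in epithelial replicates 1, 2 and 3 and 8.11, 7.72 and 7.85 in the stromal ones, a difference of 4.60 ± 0.19 (adjusted p = 2.00e-07). Cldn4, a claudin of the tight junction, read 12.62, 12.88 and 11.62 against 7.28, 7.06 and 7.17 (5.20 ± 0.24, adjusted p = 2.99e-07). Both genes were lowest of the epithelial arrays in replicate 3 and far above every stromal array there too. Zeb1, a repressor of epithelial genes, read 9.05, 8.96 and 9.45 in the epithelial arrays and 11.02, 10.95 and 10.99 in the stromal arrays (-1.83 ± 0.15, adjusted p = 9.35e-06). Twist2, a mesenchymal transcription factor, read 8.73, 7.44 and 9.07 against 11.26, 11.19 and 11.30 (-2.83 ± 0.41, adjusted p = 0.000518). The layers did not overlap in either gene, and epithelial replicate 3 was the highest of its layer in both.

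All 15 measured epithelial markers were higher in the epithelial layer (median difference 4.19), while 8 of 15 stromal fibroblast markers were lower there and none was higher (median -0.64). Over all probe sets tested, the yardstick for every list below, 7.65% passed as higher and 15.1% as lower, with a median of 0.02. The stromal list was therefore split. Prrx1, a mesenchymal homeobox factor (-1.89 ± 0.23), and Pdgfrb, a receptor for platelet-derived growth factor (-1.62 ± 0.25), were lower in the epithelial layer, and so was Vim, the intermediate filament protein of mesenchyme, by a small amount (-0.36 ± 0.08, adjusted p = 0.00874). Vim lost its call with the arrays centred on their 75th percentile (-0.18, adjusted p = 0.2) and with the replicate number as a block in the 6 vehicle arrays (adjusted p = 0.0713). Col1a1, Col1a2 and Col3a1, the chains of the main fibrillar collagens, did not pass (0.03, 0.29 and -0.40). Neither did Dcn, a proteoglycan that binds collagen (0.59, and 0.06 without stromal replicate 2), nor Fn1, fibronectin (0.17, with an adjusted p of 0.0972, and of 0.0389 with the 75th percentile). Col1a1 read 12.55, 12.50 and 12.91 in the epithelial and 12.47, 12.75 and 12.66 in the stromal arrays, so RNA of this fibroblast gene read as high in the layer labelled epithelial, and the layers overlapped. Col3a1 passed without epithelial replicate 3 (-0.62, adjusted p = 0.0157). The stromal list as a whole had a median of -0.86 and 9 lower members without that array, and -0.38 and 6 lower members without epithelial replicate 2. It had 5 lower members without epithelial replicate 1, stromal replicate 2 or stromal replicate 3, and in the 6 vehicle arrays fitted alone. With the 75th percentile 5 were lower and 1 was higher. Whether fibroblasts were carried into the epithelial layer, and what part they would have in these values, was not tested.

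**Figure D1:**
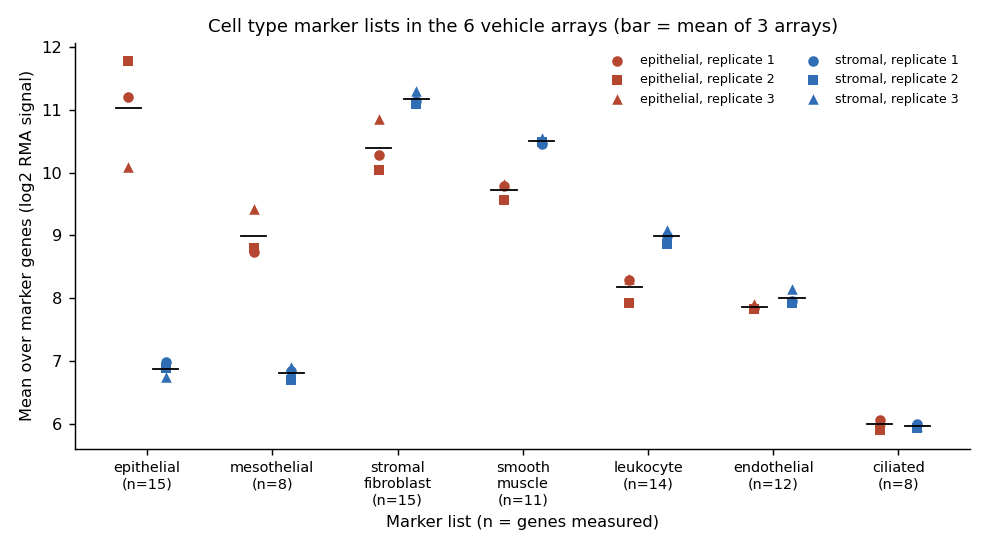
Mean log2 signal over the measured genes of 7 cell type marker lists in each of the 6 vehicle arrays; symbols stand for the replicate number and bars for the mean of 3 arrays. The epithelial markers lie between 10.1 and 11.8 in the epithelial arrays and between 6.75 and 6.99 in the stromal arrays, with epithelial replicate 3 lowest, and the stromal fibroblast markers are at 10.0 to 10.9 even in the epithelial arrays.

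Across all 21789 probe sets, 4954 (22.7%) differed between the layers, 1666 (7.65%) higher and 3288 (15.1%) lower in the epithelial layer. Most differences were small, with a median size of 0.64. At least 2-fold were 1268 (5.82%), of which 579 (2.66%) were higher and 689 (3.16%) lower. The large differences leaned the other way: 189 were at least 4-fold higher and 124 at least 4-fold lower, 79 and 27 at least 8-fold, and 35 and 4 at least 16-fold. Without epithelial replicate 3 the last 2 pairs of counts were 101 and 44, and 52 and 10, and without epithelial replicate 2 they were 59 and 18, and 21 and 3. In all, 6658 probe sets passed without epithelial replicate 2 and 4743 without replicate 3, and 3277 with the replicate number as a block in the 6 vehicle arrays, in place of 4954. The split by direction depended on the scaling. Centring each array on its 75th percentile moved the median difference of all probe sets from 0.02 to 0.20, and the share of calls that were higher in the epithelial layer from 33.6% to 60.5% (at least 2-fold, from 45.7% to 61.0%). Quantile normalization of the tested probe sets put it at 42.9%.

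**Figure D2:**
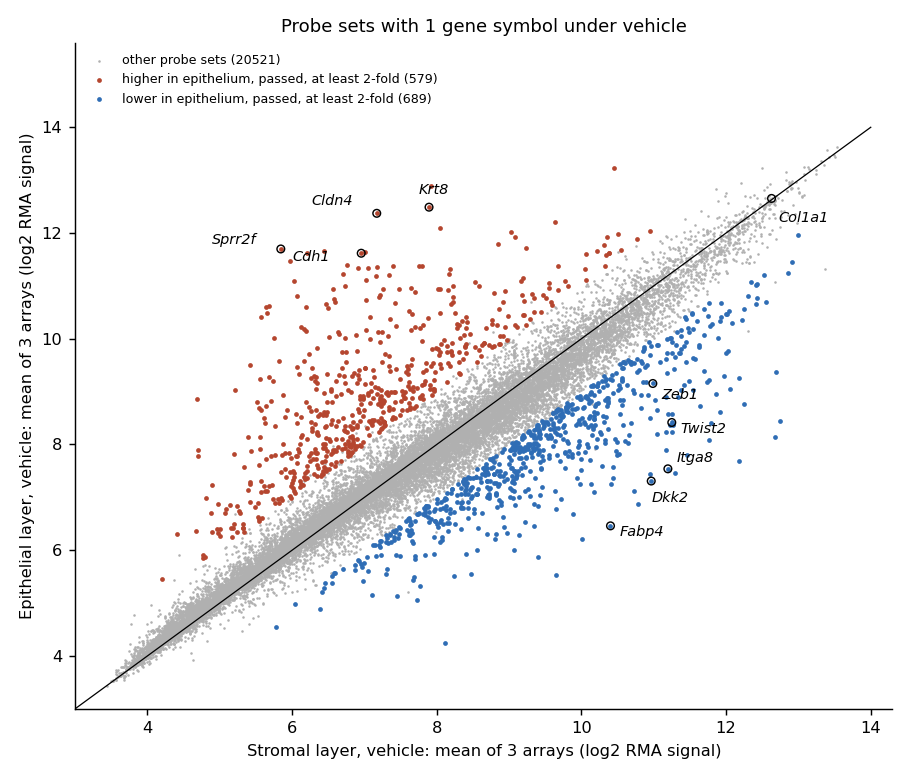
Mean log2 signal of each of the 21789 probe sets in the 3 epithelial vehicle arrays (vertical axis) against the 3 stromal vehicle arrays (horizontal axis); coloured points passed and differed at least 2-fold, and the line marks equal signals. The 579 higher and 689 lower probe sets lie on either side of the line, the farthest above it being Sprr2f and Cldn4 among the named genes, and Col1a1 lies on it.

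Among the genes with the smallest p-values, those higher in the epithelial layer had a variety of roles. F11r, an adhesion molecule of tight junctions, read 11.64, 11.83 and 11.45 in the epithelial and 6.79, 7.23 and 7.02 in the stromal arrays (4.63 ± 0.16, adjusted p = 8.05e-08). Sprr2f, a small proline-rich protein of uterine epithelium, read 11.80, 12.38 and 10.91 against 5.83, 5.96 and 5.74, and its difference of 5.85 ± 0.27 was the largest of all probe sets that passed. Non-overlap of the layers was a condition for naming the genes of this and the next paragraph. Clu, a secreted chaperone (4.96 ± 0.19), Msln, a surface protein of mesothelium (4.19 ± 0.18), Upk1b, a uroplakin (3.97 ± 0.20), and Mpzl2, a homophilic adhesion protein (4.64 ± 0.25), also belonged to this group. So did Cxadr, a junctional receptor (3.19 ± 0.15), Spint2, an inhibitor of membrane proteases (4.29 ± 0.23), Ezr, a linker of actin to microvilli (1.84 ± 0.09), and Atp1b1, a subunit of the sodium pump (3.85 ± 0.21). Lratd1 (2.75 ± 0.12), Dnajc6, a co-chaperone of clathrin uncoating (1.60 ± 0.09), and Krt8 completed it, with Taf1d (1.25 ± 0.18 for the brightest of its 9 probe sets). Together with Cldn4 these were 15 genes, and the adjusted p of their brightest probe sets lay between 8.05e-08 and 0.000452.

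On the other side stood Fabp4, a fatty acid binding protein of fat cells, macrophages and capillaries. It read 6.46, 6.28 and 6.64 in the epithelial and 10.36, 10.45 and 10.40 in the stromal arrays (-3.94 ± 0.17, adjusted p = 2.00e-07). Prdm1, a transcriptional repressor also known as Blimp1, read 7.37, 7.26 and 7.71 against 10.61, 11.31 and 10.92 (-3.50 ± 0.21, adjusted p = 1.64e-06). Gabrb2, a subunit of the GABA-A receptor (-3.06 ± 0.23 for the brightest of 3 probe sets), and Dkk2, a secreted WNT antagonist (-3.66 ± 0.24), were lower as well. Tnfrsf11b, the decoy receptor osteoprotegerin (-1.86 ± 0.12), Wipf1, an actin regulator (-1.44 ± 0.09), Rab7b, a small GTPase of endosomes (-1.76 ± 0.12), and Prkar1b, a regulatory subunit of protein kinase A (-2.37 ± 0.14), followed. Lower too were Mapre2, which binds microtubule ends (-1.97 ± 0.11), Doc2b, a calcium sensor of exocytosis (-2.22 ± 0.13), Sh3bp4 (-1.62 ± 0.10), Chp2 (-2.50 ± 0.16), Lrrc55 (-2.44 ± 0.15), Rtl3 (-2.85 ± 0.18) and B3galt5, a galactosyltransferase (-1.75 ± 0.12). The adjusted p of the brightest probe sets of these 15 genes lay between 2.00e-07 and 7.22e-06.

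The genes of epithelial architecture were described by list. Of 18 keratins, 10 were higher in the epithelial layer, none was lower and the median was 0.53. The simple-epithelial pairs led: Krt18, the partner of Krt8 (4.05 ± 0.34), Krt19 (4.27 ± 0.37) and Krt7 (3.99 ± 0.28). Krt17, a keratin of basal and stressed epithelium, read 10.95, 10.72 and 8.58 against 6.40, 6.59 and 6.95 (3.44 ± 0.47, adjusted p = 0.000372), and Krt20, a keratin of superficial urothelium and gut, differed by 1.75 ± 0.35 and Krt14, a basal keratin, by 1.20 ± 0.14. Krt5, the basal partner of Krt14, did not pass (0.13), and neither did the suprabasal keratins Krt1, Krt10, Krt4 and Krt13 (0.10, 0.06, -0.03 and 0.15). The other 3 that passed, Krt6a (0.60 ± 0.18), Krt6b (0.49 ± 0.15) and Krt80 (0.57 ± 0.15), lost their calls without single arrays of either layer, with adjusted p up to 0.119, 0.14 and 0.0622, and Krt6a differed by 0.39 without epithelial replicate 1. With the block in the 6 vehicle arrays the adjusted p was 0.0598 for Krt6b and 0.107 for Krt80, and with the co-culture as a block in all 12 arrays 0.0541 for Krt6b. Krt6b was also lost with array weights (0.0706) and quantile normalization (0.078), all 3 in the vehicle arrays fitted alone (0.0779, 0.0543 and 0.0809), and Krt6a and Krt6b with every probe set of the array tested (0.0516 and 0.0536).

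**Figure D3:**
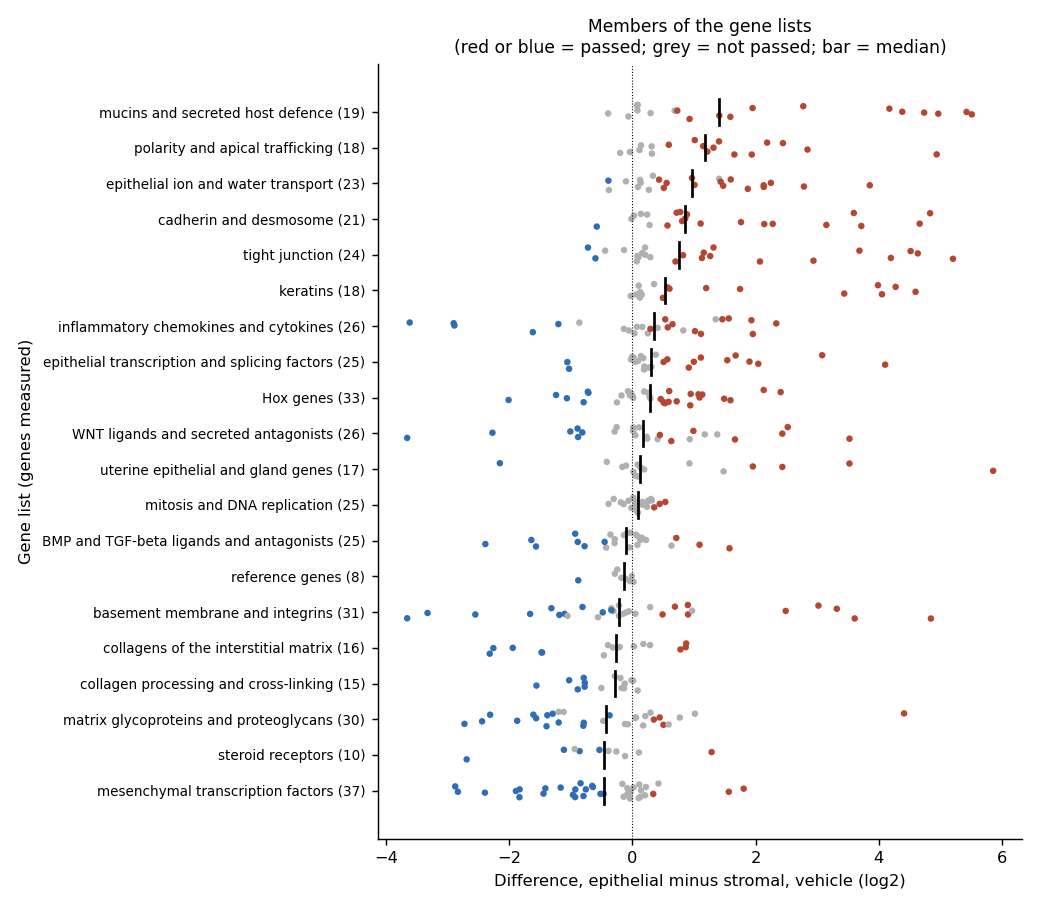
Difference between the layers under vehicle (epithelial minus stromal, log2) for each measured gene of 20 gene lists, with red for members that passed as higher, blue for those that passed as lower, grey for those that did not pass and a bar for the median of the list. Medians run from -0.47 for the mesenchymal transcription factors to 1.41 for the mucins and secreted host defence genes, and most lists hold members on both sides of 0.

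Of 24 tight junction genes, 13 were higher and 2 lower (median 0.76), with 1 lower without epithelial replicate 1 or 3 or stromal replicate 1 or 3. Claudins set which ions pass between cells. Cldn7 read 10.87, 11.76 and 9.36 in the epithelial and 6.62, 6.42 and 6.36 in the stromal arrays (4.19 ± 0.42), Cldn6 read 11.63, 12.01 and 10.02 and 6.79, 6.60 and 6.72 (4.51 ± 0.39), and Cldn3 differed by 2.94 ± 0.34. In all of them epithelial replicate 3 was the lowest of its layer and still above every stromal array. Ocln, occludin, differed by 3.68 ± 0.54 (adjusted p = 0.000585). Not all claudins passed, the exceptions including Cldn2 (0.09), Cldn18 (0.21) and Cldn5, a claudin of endothelium (0.16, which passed without epithelial replicate 2 at 0.30, adjusted p = 0.0373). Tjp1, the scaffold protein ZO-1, ran the other way (-0.72 ± 0.15, adjusted p = 0.00575), and is also used at contacts of non-epithelial cells.

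Of 21 genes of adherens junctions and desmosomes, 15 were higher and 1 lower (median 0.86); none was lower when any one array other than epithelial replicate 2 was left out, with the 75th percentile or quantile normalization, or in the vehicle arrays alone. Cdh1, E-cadherin, read 11.86, 12.24 and 10.75 against 7.06, 7.19 and 6.62 (4.66 ± 0.31, adjusted p = 3.59e-06), and Epcam, an epithelial adhesion molecule, read 10.64, 11.20 and 9.59 against 5.96, 5.78 and 5.21 (4.83 ± 0.35, adjusted p = 6.00e-06). The stromal arrays spread less than the epithelial ones in both genes, and epithelial replicate 3 was the lowest of its layer. Desmosomal genes were higher from the cadherins Dsg2 (3.59 ± 0.43) and Dsc2 (3.15 ± 0.46) to the plaque proteins Dsp (2.14 ± 0.36), Pkp1 (1.76 ± 0.20), Pkp3 (0.57 ± 0.09) and Jup (0.89 ± 0.16), and Perp, a tetraspan protein of desmosomes, differed by 3.71 ± 0.45. Nectin4 (2.28 ± 0.27) and Nectin2 (0.81 ± 0.13), adhesion molecules of the adherens junction, were higher as well. Cdh3, P-cadherin, differed less (0.86 ± 0.18). Cdh11, a cadherin of mesenchyme, did not differ beyond its error (-0.02 ± 0.10, adjusted p = 0.92), and neither did Dsc3, a desmocollin of stratified epithelium (0.03).

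Genes of polarity and apical transport passed as higher in 12 of 18 cases, with none lower (median 1.18) or, without epithelial replicate 2, 1. Mal2, a protein of transcytosis to the apical membrane, read 10.78, 11.81 and 9.25 in the epithelial and 5.50, 5.78 and 5.75 in the stromal arrays (4.94 ± 0.45, adjusted p = 2.44e-05). Prss8, the membrane protease prostasin (2.84 ± 0.43), Lad1, a filament-binding protein (2.44 ± 0.32), and Rab25, a small GTPase of apical recycling (2.19 ± 0.31), followed. Ap1m2, the epithelial subunit of a clathrin adaptor (1.94 ± 0.36), Myo5b, the motor that carries recycling vesicles (1.65 ± 0.24), Patj (1.41 ± 0.22), Pard6b (1.32 ± 0.21), Llgl2 (1.15 ± 0.16) and Crb3 (1.01 ± 0.17), components of the polarity complexes, were higher too. Their widely used partners Prkci, an atypical protein kinase C (0.11), and Mpp5 (-0.04) did not pass.

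Promoter sequence was read for these gene lists because the repressors named above bind an E-box. The windows run from 250 bases before to 50 bases after each start in RefSeq (GRCm38.p6), 32851 windows in all. The letters searched were CAGGTG and its reverse complement CACCTG. The E-box was in 20.2% of all windows, and in a window of 22.2% of the 15614 measured genes that had one. It was found for 8 of 20 tight junction genes, all 8 of them among the 11 that were higher in the epithelial layer. For cadherin and desmosome genes it was found for 3 of 6, all 3 of them among the 5 that were higher. Only genes with a window were searched. These were 6 of the 21 measured genes of this list, 20 of 24 tight junction genes and 16 of 25 factors. Cdh1, Dsg2, Dsc2, Perp and Pkp1 had no window. For epithelial transcription and splicing factors it was found for 8 of 16, 4 of them among the 5 that were higher and 4 among the other 11. The windows of Cldn4, Epcam and Cldn7 are shown, since each holds the E-box more than once beside one of the large differences above; capitals mark it.
Cldn4, chr5:134946885-134947184, minus strand: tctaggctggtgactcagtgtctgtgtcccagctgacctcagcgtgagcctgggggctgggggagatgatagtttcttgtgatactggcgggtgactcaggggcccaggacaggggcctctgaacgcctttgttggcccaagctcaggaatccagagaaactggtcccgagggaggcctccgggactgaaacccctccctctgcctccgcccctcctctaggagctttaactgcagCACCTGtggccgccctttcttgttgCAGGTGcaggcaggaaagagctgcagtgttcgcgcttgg
Epcam, chr17:87635729-87636028, plus strand: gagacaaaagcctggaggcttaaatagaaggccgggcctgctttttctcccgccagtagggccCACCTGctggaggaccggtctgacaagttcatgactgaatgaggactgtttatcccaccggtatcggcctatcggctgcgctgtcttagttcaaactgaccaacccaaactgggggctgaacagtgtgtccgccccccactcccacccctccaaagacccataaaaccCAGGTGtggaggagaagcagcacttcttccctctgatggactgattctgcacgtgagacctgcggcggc
Cldn7, chr11:69965171-69965470, plus strand: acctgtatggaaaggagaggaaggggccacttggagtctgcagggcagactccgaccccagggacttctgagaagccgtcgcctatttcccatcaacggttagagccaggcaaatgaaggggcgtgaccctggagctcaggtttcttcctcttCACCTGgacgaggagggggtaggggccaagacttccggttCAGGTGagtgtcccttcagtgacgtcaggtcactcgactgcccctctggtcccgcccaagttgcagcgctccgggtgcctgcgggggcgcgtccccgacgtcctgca
In Cldn4 the E-boxes lie on either side of the start of transcription, in Epcam the second lies just before it, and in Cldn7 both lie before it. A second RefSeq start of Cldn7 lies upstream, and its window, chr11:69964529-69964828, holds none. A match is a description of these letters, and the arrays measured no binding.

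Transcription factors stood on both sides. Of 25 epithelial transcription and splicing factors, 11 were higher and 2 lower in the epithelial layer (median 0.31). Elf3, an ETS factor of epithelia, read 10.35, 11.13 and 9.21 against 6.23, 5.89 and 6.27 (4.10 ± 0.38, adjusted p = 2.74e-05), and Esrp1, a splicing regulator restricted to epithelia, read 8.42, 10.18 and 7.36 against 5.52, 5.54 and 5.66 (3.08 ± 0.49, adjusted p = 0.000991). No epithelial array overlapped a stromal one. Esrp2 (1.67 ± 0.22), Grhl2, a Grainyhead-like activator of junction genes (1.54 ± 0.30), Pax8, a factor of Müllerian epithelium (2.04 ± 0.37), and Tfcp2l1 (1.11 ± 0.16) were higher as well. Sox17, a factor of endometrial epithelium, differed by 1.90 ± 0.41 (adjusted p = 0.00582, and 0.0536 with the replicate number as a block in the 6 vehicle arrays). Foxa2, which marks uterine glands, did not pass (0.02). Without stromal replicate 2 the list had 7 higher members, and its median was 0.49 with the 75th percentile. Emx2 (-1.06 ± 0.16) and Tfap2c (-1.03 ± 0.14), which were placed on the epithelial list, were higher in the stromal layer.

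Of 37 mesenchymal transcription factors, 19 were lower in the epithelial layer and 3 higher (median -0.47). Ebf1 read 6.97, 6.28 and 7.08 in the epithelial and 9.61, 9.58 and 9.77 in the stromal arrays (-2.88 ± 0.25, adjusted p = 1.92e-05), and Tbx3, a T-box factor, read 8.71, 8.03 and 9.21 and 11.02, 11.07 and 11.05 (-2.39 ± 0.23, adjusted p = 3.43e-05). Epithelial replicate 3 was the nearest to the stroma in both, with no overlap. Tcf4, a partner of TWIST proteins (-1.83 ± 0.19), Foxl2 (-1.44 ± 0.17), Osr2 (-1.41 ± 0.13), Zeb2 (-0.97 ± 0.22), Snai2 (-0.93 ± 0.18), Foxf1 (-0.84 ± 0.15, brightest of 2 probe sets) and Prrx2 (-0.79 ± 0.15) were lower. Twist1 did not pass (0.12), nor did Nr2f2, a nuclear receptor of uterine stroma (0.14; it passed under 2 other scalings, at 0.32 with the 75th percentile and 0.32 with quantile normalization). Hand2, a progesterone-responsive factor of the stroma, read 8.79, 8.18 and 9.15 against 9.44, 9.31 and 9.28 (-0.64 ± 0.20, adjusted p = 0.0365). Its call was lost without any array but epithelial replicate 3, with adjusted p from 0.00429 to 0.111 over the 6, with the 75th percentile and quantile normalization (0.135 and 0.166) and with the block in the 6 vehicle arrays (0.103), and its difference was -0.38 without epithelial replicate 2. It was also lost in the vehicle arrays alone (0.106) and with every probe set of the array tested (0.0563). Sox9, a factor of cartilage and of many glands, was the reverse case, higher in the epithelial layer (1.80 ± 0.29, adjusted p = 0.00109). Without stromal replicate 2 or in the vehicle arrays alone, 1 member of the list was higher in place of 3. With the 75th percentile 6 were higher and 14 lower (median -0.29), and with quantile normalization 5 and 16.

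Some microRNAs of the miR-200 family were added to the lists after their values had been seen. They were added because they repress Zeb1 and Zeb2 and their mature sequences show 2 seeds. Bases 2 to 8, the seed, are in capitals.
mmu-miR-200a-3p, chr4:156054911-156054932, minus strand: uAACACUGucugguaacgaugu
mmu-miR-141-3p, chr6:124717917-124717938, minus strand: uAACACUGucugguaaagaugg
mmu-miR-200b-3p, chr4:156055685-156055706, minus strand: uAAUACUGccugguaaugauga
mmu-miR-200c-3p, chr6:124718324-124718346, minus strand: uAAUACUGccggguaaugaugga
The first pair shares one seed and the second pair the other, while by position (RefSeq, GRCm38.p6) miR-200a lies with miR-200b and miR-141 with miR-200c. The probe sets do not tell the mature RNA from its precursor. The probe set of Mir200c read 6.73, 6.97 and 6.33 in the epithelial and 5.87, 5.77 and 5.77 in the stromal arrays (0.87 ± 0.18, adjusted p = 0.00475), without overlap. Mir200b differed by 1.51 ± 0.43 (adjusted p = 0.0249), with 0.82 without epithelial replicate 2 and no call without any one stromal array or with the block in the 6 vehicle arrays (adjusted p 0.0653, 0.0806 and 0.0552, and 0.116). Mir200a differed by 0.56 ± 0.17 (adjusted p = 0.0349), with no call without any one stromal array (0.0608, 0.115 and 0.0901), with the co-culture as a block in all 12 arrays (0.072) or in the 6 vehicle arrays (0.104), or without epithelial replicate 2 (0.36, adjusted p = 0.0708). In the vehicle arrays alone neither passed (0.104 for Mir200b and 0.0768 for Mir200a), and Mir200a was lost with array weights (0.051) and with every probe set of the array tested (0.0534). Mir141 just missed (0.66 ± 0.22, adjusted p = 0.0523, and 0.00957 without epithelial replicate 3). It differed by 0.41 without epithelial replicate 2, and passed with the 75th percentile (0.0252), array weights (0.0373) and the other prior (0.0477).

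Secreted and membrane-bound products of epithelia were among the largest differences. Of 19 mucins and host defence genes, 12 were higher in the epithelial layer and none was lower (median 1.41). Ltf, lactoferrin, an iron-binding protein of uterine fluid, read 11.87, 12.29 and 10.28 against 6.13, 5.80 and 5.98 (5.51 ± 0.43, adjusted p = 7.93e-06). Muc1, the transmembrane mucin of the apical surface, read 11.62, 12.51 and 10.75 against 6.13, 6.13 and 6.36 (5.42 ± 0.33, adjusted p = 1.64e-06). Both were at their lowest epithelial value in the third replicate and did not overlap with the stroma. Muc4, another membrane mucin (4.73 ± 0.39), Ceacam1, an adhesion molecule (4.38 ± 0.36), Wfdc2, a protease inhibitor of secretory epithelia (4.17 ± 0.42), Lcn2, a siderophore-binding lipocalin (2.77 ± 0.40), and Slpi, an antiprotease (1.95 ± 0.21), followed. Cfb, complement factor B (1.41 ± 0.20), and Muc16 (0.93 ± 0.14) were higher by less. Pigr, the transporter of secreted antibodies (0.29), and Lyz1, a lysozyme (-0.40), did not pass; Pigr passed with the arrays centred on their 75th percentile (0.48, adjusted p = 0.0499).

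Transport genes passed as higher in 14 of 23 cases and as lower in 1 (median 0.97), and the median was 0.57 without epithelial replicate 2. With the 75th percentile none was lower, and with quantile normalization 2 were. Atp1b1 read 10.79, 11.57 and 11.23 in the epithelial and 7.46, 6.93 and 7.65 in the stromal arrays. Slc34a2, a phosphate carrier (2.78 ± 0.42), Cftr, the chloride channel (2.25 ± 0.42), Kcnq1, a potassium channel (2.13 ± 0.29), Slc4a4, a bicarbonate carrier (1.60 ± 0.23), Slc12a2, a chloride loader (1.43 ± 0.25), and Car12, a carbonic anhydrase (1.47 ± 0.33), were higher in the epithelial layer. Of the aquaporins, Aqp5 differed by 0.56 ± 0.09, while Aqp8 did not pass (0.27). Scnn1a, the alpha subunit of the epithelial sodium channel, read 7.24, 9.64 and 7.03 against 6.63, 6.44 and 6.63 (1.41 ± 0.51, adjusted p = 0.0675). It did not pass with all arrays although the layers did not overlap, and passed without any one of the epithelial arrays (adjusted p 0.0452, 0.00998 and 0.0175), with differences of 1.77, 0.57 and 1.88. It also passed with the 75th percentile (0.0306) and with array weights (0.0334).

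Genes known from uterine epithelium and glands in the animal passed in 4 of 17 cases as higher and in 1 as lower (median 0.13, which ran from 0.03 with quantile normalization to 0.31 with the 75th percentile, and was 0.06 without epithelial replicate 3 or stromal replicate 2). In the vehicle arrays alone 2 were lower. The 4 were Sprr2f, the WNT ligands Wnt7a and Wnt7b, and Lif, the cytokine of glands needed for implantation (1.95 ± 0.32, adjusted p = 0.00115). Lif read 10.34, 10.61 and 9.83 in the epithelial and 8.53, 7.41 and 8.98 in the stromal arrays, without overlap. Ihh, the hedgehog ligand of the luminal epithelium (0.09), Calb1, a calcium binding protein (0.15), and Prss28 and Prss29, gland proteases (0.13 and 0.08), did not pass. Lrat, an enzyme of retinoid storage, was lower in the epithelial layer (-2.15 ± 0.25, adjusted p = 0.000123).

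The matrix was divided rather than stromal as a whole. Of 16 interstitial collagens, 5 were lower in the epithelial layer, 3 higher and 8 did not pass (median -0.27). Collagen VI, which forms beaded filaments around cells, was lower in all 3 chains: Col6a1 (-1.94 ± 0.20), Col6a2 (-2.32 ± 0.21) and Col6a3 (-2.26 ± 0.28). Col6a2 read 9.21, 9.04 and 9.90 against 11.41, 12.08 and 11.60 (adjusted p = 2.44e-05), and epithelial replicate 3 was again the nearest to the stromal arrays. Col15a1 (-1.48 ± 0.20) and Col5a3 (-1.47 ± 0.14) were lower too. Col8a1, a short-chain collagen of vessels and membranes, was higher (0.86 ± 0.11, adjusted p = 0.00026), as was Col11a1, a minor fibrillar collagen (0.78 ± 0.12). Without epithelial replicate 3, 9 of the 16 were lower and the median was -0.46; it was -0.09 with the 75th percentile and -0.18 with quantile normalization.

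Of 30 matrix glycoproteins and proteoglycans, 13 were lower and 4 higher (median -0.42), and 7 were higher without epithelial replicate 2 and 2 without stromal replicate 1 or in the vehicle arrays alone. The median was -0.24 with the 75th percentile. Dpt, dermatopontin, read 5.48, 5.03 and 6.03 in the epithelial and 7.65, 8.86 and 8.22 in the stromal arrays (-2.73 ± 0.30, adjusted p = 8.65e-05). Cspg4, the proteoglycan NG2 of pericytes and progenitors (-2.44 ± 0.35), Aspn, asporin (-2.31 ± 0.37), Mfap5 (-1.87 ± 0.27), Vcan, versican (-1.40 ± 0.22), and Emilin1 (-1.20 ± 0.19) were lower as well. Efemp1, the fibulin-like glycoprotein fibulin-3, was the exception in both sign and size: it read 9.96, 11.03 and 10.82 in the epithelial and 6.16, 5.77 and 6.64 in the stromal arrays (4.41 ± 0.51, adjusted p = 0.000123). Sparc, a matrix protein that read 13.34, 13.26 and 13.46 against 13.29, 13.32 and 13.31 (0.05), and Bgn, biglycan (0.06), did not pass. Among 15 genes of collagen processing, 6 were lower and none higher (median -0.29, and -0.11 and -0.18 with the 75th percentile and quantile normalization). They included P3h2 (-1.56 ± 0.24) and P4ha2 (-1.03 ± 0.13), which hydroxylate prolines, and Plod1, a lysyl hydroxylase (-0.78 ± 0.12), while Lox and Serpinh1, a collagen chaperone, did not pass (-0.14 and 0.08).

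Laminins and integrins, through which cells hold the basement membrane, went both ways. Of 31 genes, 9 were higher and 10 lower in the epithelial layer (median -0.22, with -0.08 without epithelial replicate 2, -0.04 with the 75th percentile and -0.10 with quantile normalization). The laminin-332 chains Lama3 (3.02 ± 0.39) and Lamb3 (3.61 ± 0.42) and its receptor subunit Itgb4 (3.32 ± 0.37) were higher, as were Itga3 (2.49 ± 0.18), Lama5 (0.90 ± 0.13) and Itgb6, a subunit of the epithelial integrin that activates TGF-beta (4.84 ± 0.45). Itgb6 read 10.43, 11.63 and 9.19 against 5.60, 5.48 and 5.63 (adjusted p = 2.86e-05). In the other direction, Itga8 read 7.28, 7.25 and 8.09 against 10.60, 11.49 and 11.50 (-3.66 ± 0.28, adjusted p = 7.06e-06) and Itga11, a collagen receptor of fibroblasts, read 9.25, 8.65 and 10.20 against 12.57, 12.82 and 12.69 (-3.33 ± 0.28, adjusted p = 1.54e-05). Itga1 (-2.55 ± 0.25), Lama2, the laminin chain of muscle and mesenchyme (-1.66 ± 0.23), Col4a3 (-1.32 ± 0.14), Lama1 (-1.10 ± 0.23) and Nid1, nidogen (-0.81 ± 0.14), were lower as well. The common collagen IV chains Col4a1 and Col4a2 did not pass (-0.22 and -0.31); without epithelial replicate 3 both passed (-0.46, adjusted p = 0.0481, and -0.58, adjusted p = 0.00426). Itga6, the partner of Itgb4, did not pass either (0.97 ± 0.38, adjusted p = 0.0954), and passed without epithelial replicate 3 (1.46, adjusted p = 0.00455) or stromal replicate 2 (1.31, adjusted p = 0.0411) and with the co-culture as a block in all 12 arrays (0.0136) or the 75th percentile (0.0357), and differed by 0.53 without epithelial replicate 2.

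Hox genes, which give cells their position along the body axis, were counted by cluster and by paralog number, 2 groupings chosen after the values had been seen. Of 33 measured Hox genes, 16 were higher in the epithelial layer and 6 lower (median 0.29, and 0.47 with the 75th percentile). In cluster B 6 of 7 and in cluster C 6 of 7 were higher and none was lower, in cluster A 4 of 10 were higher and 2 lower, and in cluster D 4 of 9 were lower and none was higher. Hoxc6 read 8.30, 8.44 and 8.84 in the epithelial and 6.35, 5.85 and 6.16 in the stromal arrays (2.41 ± 0.18, adjusted p = 6.40e-06), and Hoxc8 read 8.15, 8.98 and 8.55 against 6.74, 6.13 and 6.42 (2.13 ± 0.19, adjusted p = 2.44e-05). Here epithelial replicate 3 did not fall toward the stroma: it was the highest of its layer in Hoxc6 and lay between the other two in Hoxc8. Hoxc5 (0.94 ± 0.09), Hoxc10 (0.72 ± 0.11), Hoxb4 (1.09 ± 0.16), Hoxa5 (1.07 ± 0.18) and Hoxa6 (0.95 ± 0.15) were higher by less. Hoxa11, needed in the uterine stroma for implantation, read 7.92, 7.28 and 8.64 against 9.91, 10.02 and 9.94 (-2.01 ± 0.28, adjusted p = 0.00044), and Hoxa10, which has a like role, read 8.74, 8.64 and 9.19 against 10.09, 10.06 and 10.13 (-1.24 ± 0.19, adjusted p = 0.000891). Hoxd8 (-0.79 ± 0.17), Hoxd9 (-0.72 ± 0.13), Hoxd10 (-1.06 ± 0.16) and Hoxd11 (-0.71 ± 0.15) were lower too. By number, 13 of the 20 genes of paralog groups 1 to 8 were higher and 1 lower, and 3 of the 13 genes of groups 9 to 13 were higher and 5 lower. Hoxb3, Hoxb5, Hoxb6 and Hoxb7 passed here but not with the replicate number as a block in the 6 vehicle arrays (adjusted p 0.0554, 0.0736, 0.0542 and 0.0533). Hoxb9 lost its call with that block (0.0943) and without stromal replicate 2 (0.0563), and Hoxa3 without any array but epithelial replicate 1 (0.0419 to 0.11 over the 6) and with the co-culture as a block in all 12 arrays (0.0539). Hoxa3 was also lost with quantile normalization (0.173) and with every probe set of the array tested (0.0561), and Hoxb9 in the vehicle arrays alone (0.0716).

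**Figure D4:**
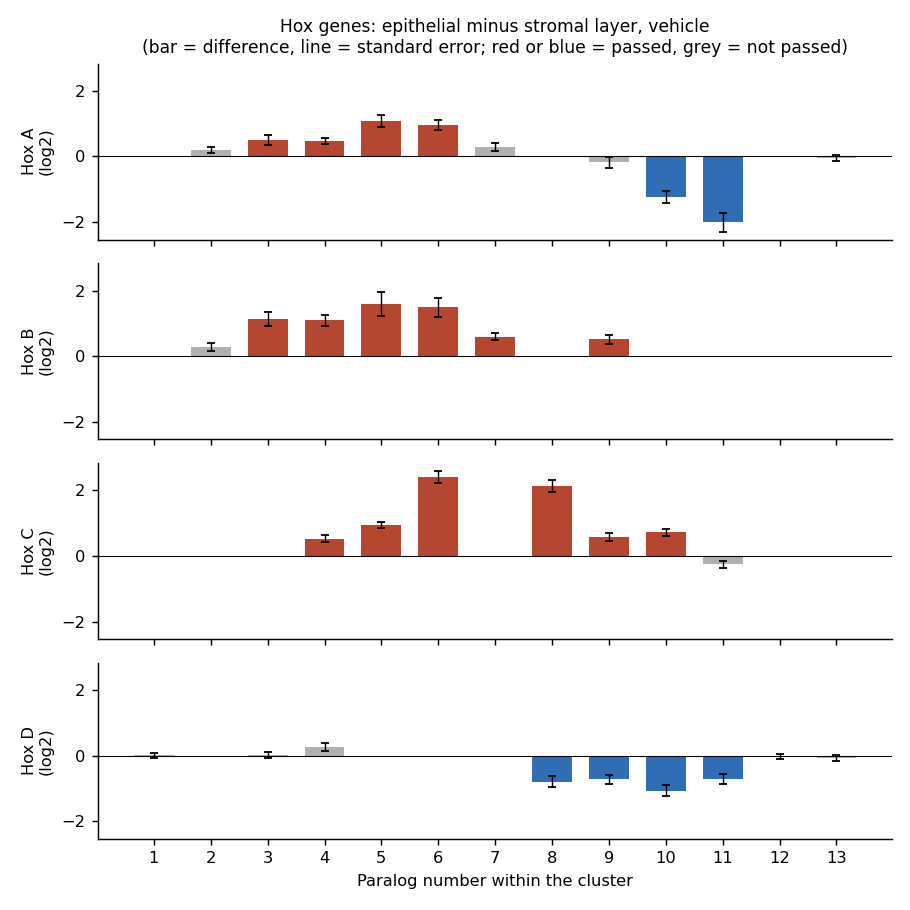
Difference between the layers under vehicle (epithelial minus stromal, log2) for each measured Hox gene by cluster and paralog number, with standard errors; red passed as higher, blue as lower and grey did not pass. Bars lie above 0 in most of clusters B and C, led by Hoxc6 at 2.41, and below 0 in Hoxa10, Hoxa11 and Hoxd8 to Hoxd11.

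Markers of other cells differed between the layers as well, and their part in the results above was not tested. Of 8 mesothelial markers, 5 were higher in the epithelial layer and none lower (median 2.63), and their mean was 8.74 to 9.42 across the epithelial arrays and 6.70 to 6.90 across the stromal ones, highest in epithelial replicate 3. Mesothelium is the outer cover of the uterus, an epithelium that also makes keratins. Msln read 11.33, 11.86 and 10.90 in the epithelial and 7.11, 7.16 and 7.25 in the stromal arrays, and Upk3b, a uroplakin of mesothelium, read 9.93, 9.76 and 10.82 against 6.94, 7.03 and 7.11 (3.15 ± 0.26, adjusted p = 1.26e-05). Epithelial replicate 3 was the lowest of its layer in Msln and the highest in Upk3b. Bnc1 (2.94 ± 0.20) and Lrrn4 (2.33 ± 0.36) were higher, and Wt1, a transcription factor of both mesothelium and uterine stroma, did not differ beyond its error (0.02 ± 0.17).

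Leukocyte markers were lower in the epithelial layer for 8 of 14 genes and higher for 1 (median -1.18), and their mean was 7.93 to 8.31 across the epithelial arrays and 8.87 to 9.09 across the stromal ones. Csf1r, the receptor of macrophage growth factor, read 7.46, 7.02 and 7.63 against 9.38, 9.37 and 9.30 (-1.98 ± 0.14, adjusted p = 3.89e-06). Adgre1, the macrophage antigen F4/80 (-1.99 ± 0.23), Itgam (-1.57 ± 0.25), Ptprc, the pan-leukocyte antigen CD45 (-1.13 ± 0.18), and Cd52 (-1.36 ± 0.22) were lower, while the T cell and B cell genes Cd3e and Cd79a did not pass (0.24 and 0.10). Cd14 was the member that was higher (1.17 ± 0.28, adjusted p = 0.0114), and lost the call without stromal replicate 2 (0.052) and with array weights (0.0839). Smooth muscle markers were lower for 9 of 11 and higher for none (median -0.63), with means of 9.56 to 9.81 and 10.5 to 10.6; 5 were lower with the 75th percentile. Myh11, smooth muscle myosin, read 8.99, 8.32 and 8.32 against 10.15, 10.10 and 10.26 (-1.63 ± 0.22, adjusted p = 0.000299), and Actg2 (-1.58 ± 0.21), Lmod1 (-1.21 ± 0.10), Mylk (-1.13 ± 0.17) and Des, desmin (-1.04 ± 0.12), were lower. Acta2, which fibroblasts in culture also make, did not pass (-0.22 ± 0.08, adjusted p = 0.0564) and passed with quantile normalization (0.0198), the other prior (0.0261) and a minimum mean signal of 7 (0.0493). Endothelial markers were split, 2 higher, 2 lower and 8 not passing (median -0.03, and 0.16 with the 75th percentile), with means of 7.83 to 7.91 and 7.93 to 8.14; 1 was higher without epithelial replicate 1, stromal replicate 1 or stromal replicate 3, or in the vehicle arrays alone, and the median was 0.09 without epithelial replicate 2. In each direction 16.7% of the endothelial and 12.5% of the ciliated cell markers passed, against 7.65% higher and 15.1% lower over all probe sets. Eng (-2.29 ± 0.17) and Cdh5 (-1.43 ± 0.25) were lower, Kdr, a VEGF receptor, was higher (2.34 ± 0.26), and Pecam1, Tek and Vwf did not pass (-0.21, -0.05 and -0.03). Ciliated cell markers passed in 1 of 8 in each direction (median 0.10, with 0.29 with the 75th percentile, -0.01 with quantile normalization, 0.16 without epithelial replicate 2 and 0.03 without epithelial replicate 3), with differences from -0.50 to 0.27, and none was higher without epithelial replicate 1, stromal replicate 1 or stromal replicate 2, with quantile normalization or in the vehicle arrays alone, and none lower with the 75th percentile.

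Growth factors and their receptors were set side by side as 52 ligand and receptor pairs, of which 45 had both genes measured. In 5 pairs the ligand was higher in the stromal and the receptor in the epithelial layer, and in 1 it was the reverse. In 4 both were higher in the epithelial and in 1 both in the stromal layer. In 13 pairs neither gene passed. Only the ligand passed in 8 pairs as epithelial and in 4 as stromal, and only the receptor in 5 as epithelial and in 4 as stromal. The pairs were not tested as a set. Hgf, hepatocyte growth factor, read 7.15, 6.15 and 7.72 in the epithelial and 9.25, 8.94 and 9.23 in the stromal arrays (-2.13 ± 0.30, adjusted p = 0.000407), and its receptor Met read 10.15, 11.04 and 9.37 against 6.06, 6.17 and 6.25 (4.03 ± 0.31, adjusted p = 7.89e-06). The 2 genes thus stood on opposite sides. Neither overlapped between the layers, which also held for 37.0% of all probe sets. The same held for Nrg1, neuregulin (-2.08 ± 0.17), and Erbb3 (2.85 ± 0.36), for Bmp2 (-2.39 ± 0.41) and Bmpr1a (0.45 ± 0.10), and for Bmp7 (-1.57 ± 0.24) and Acvr1 (0.79 ± 0.11). The pair of Inhba (-0.78 ± 0.17) and Acvr2a (0.43 ± 0.13) rested on a receptor call that was lost without any array but epithelial replicate 1 (adjusted p 0.00425 to 0.13 over the 6) and with the block in the 6 vehicle arrays (0.0828), and in these arrays alone (0.12) or with every probe set of the array tested (0.0554). The single pair with an epithelial ligand and a stromal receptor was Pdgfb (1.95 ± 0.34, adjusted p = 0.00166, and 0.0626 with the block in the 6 vehicle arrays) and Pdgfrb. Kitl and Kit (1.88 ± 0.21 and 2.92 ± 0.48), and Efna1 and Epha2 (1.72 ± 0.14 and 2.08 ± 0.16), were higher together in the epithelial layer. Fgf10, a stromal ligand for epithelial Fgfr2, did not pass (1.08 ± 0.40, adjusted p = 0.0729; 0.007 without epithelial replicate 2, 0.047 with the 75th percentile and 0.0288 with the co-culture as a block in all 12 arrays; its difference was 0.50 without epithelial replicate 3), and neither did Fgfr2 (-0.49 ± 0.23, adjusted p = 0.145; 0.0049 without epithelial replicate 3 and 0.0409 with that block; its difference was -0.29 without epithelial replicate 2, -0.79 without replicate 3 and -0.31 with the 75th percentile). These are levels of RNA in each layer, and no binding or signalling was measured.

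WNT ligands and antagonists were higher in 7 and lower in 6 of 26 cases (median 0.17). With the 75th percentile 11 were higher and 5 lower (median 0.35), and leaving out 1 array gave medians from 0.08 without epithelial replicate 1 or stromal replicate 2 to 0.31 without epithelial replicate 2. Wnt7a, the ligand of uterine epithelium, read 10.12, 11.23 and 8.75 against 6.60, 6.45 and 6.48 (3.52 ± 0.45, adjusted p = 0.000242). Wnt7b (2.43 ± 0.33), Wnt2b (1.66 ± 0.24) and Rspo1, which amplifies WNT signals (2.52 ± 0.27), were higher, and Wnt5a (-0.88 ± 0.16) and Wnt16 (-0.89 ± 0.13), ligands of the stroma, were lower. Dkk2 read 6.96, 7.59 and 7.37 in the epithelial and 10.68, 11.38 and 10.84 in the stromal arrays (adjusted p = 2.96e-06), and Dkk3 differed by -2.27 ± 0.15. Ligands of both layers thus passed. Dkk2 and Dkk3 were named for their small p-values from limma, and the other antagonists of the list are not described here. The BMP and TGF-beta list had 3 higher and 7 lower of 25 (median -0.10, with 0.08 and 0.01 with the 75th percentile and quantile normalization, and from -0.17 without stromal replicate 1 to -0.04 without stromal replicate 2). Besides Bmp2 and Bmp7, Inhbb (-1.64 ± 0.19) and Chrd, a BMP antagonist (-0.93 ± 0.14), were lower. Bmp4 and Tgfb1 did not pass (0.08 and 0.06), and Ltbp3, which stores TGF-beta in the matrix, was higher (0.71 ± 0.15).

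Inflammatory signals divided between the layers, 11 of 26 higher in the epithelial and 5 lower (median 0.35). Without stromal replicate 2, 7 were higher and 6 lower, with a median of 0.16, and 7 were higher in the vehicle arrays alone. The median was 0.53 without stromal replicate 1 or with the 75th percentile. Cxcl2, a chemokine that attracts neutrophils, read 7.64, 6.65 and 7.04 against 10.89, 10.38 and 10.91 (-3.62 ± 0.33, adjusted p = 2.43e-05), and Cxcl3 read 6.84, 5.79 and 6.73 against 9.36, 9.08 and 9.60 (-2.89 ± 0.25, adjusted p = 2.02e-05). Cxcl14 (-2.90 ± 0.23) and Il1b (-1.62 ± 0.31) were stromal too. Csf2, the growth factor GM-CSF, was higher in the epithelial layer (2.33 ± 0.37, adjusted p = 0.000981), as were Cxcl16 (1.93 ± 0.26), Csf3 (0.65 ± 0.12) and Cxcl9 (1.01 ± 0.23). Il1a was higher (1.46 ± 0.28, adjusted p = 0.00295) and missed with the block in the 6 vehicle arrays (0.0535). The macrophage genes above were lower in the epithelial arrays, and macrophages are one source of Il1b and of these chemokines; the part of such cells was not tested.

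Steroid receptors and their cofactors were higher in the epithelial layer in 1 of 10 cases and lower in 4 (median -0.46, and -0.28 with the 75th percentile). Pgr, the progesterone receptor, read 7.25, 8.03 and 7.49 in the epithelial and 10.21, 10.67 and 9.96 in the stromal arrays (-2.69 ± 0.24, adjusted p = 2.29e-05), a wide gap without overlap. Esr1, the estrogen receptor alpha, read 10.08, 10.01 and 10.42 against 10.87, 11.29 and 10.93 (-0.86 ± 0.14, adjusted p = 0.00134), and Nr3c1, the glucocorticoid receptor, 8.57, 8.32 and 9.14 against 9.64, 9.97 and 9.76 (-1.11 ± 0.17, adjusted p = 0.000811). These gaps were smaller and also without overlap. Gper1, a membrane receptor reported to bind estrogen, was higher in the epithelial layer (1.28 ± 0.20, adjusted p = 0.000838). Esr2, the estrogen receptor beta, did not pass (-0.26 ± 0.15, adjusted p = 0.26).

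Of 25 genes of mitosis and DNA replication, 3 (12%) were higher, against 7.65% of all probe sets, and none was lower (median 0.09). With the 75th percentile 5 were higher (median 0.27), and in the vehicle arrays alone none. No member was higher without epithelial replicate 3 or stromal replicate 3, and 1 was higher without epithelial replicate 1 or stromal replicate 2; 1 was lower without epithelial replicate 1 or 2 or stromal replicate 3. Mki67 (0.04 ± 0.27), Top2a (0.05 ± 0.23, brightest of 2 probe sets) and Ccna2 (-0.02 ± 0.28) did not pass. The 95% intervals of their differences were -0.54 to 0.62, -0.45 to 0.56 and -0.63 to 0.59, so that a 2-fold difference lay outside each. Of 8 reference genes, 7 did not pass and Pgk1, an enzyme of glycolysis, was lower (-0.88 ± 0.11 for the brightest of 3 probe sets); the median was -0.15, with 0.04 with the 75th percentile, -0.05 with quantile normalization and -0.23 without epithelial replicate 2. Actb (-0.01) and B2m (0.02) were among those that did not pass.

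The same difference was then measured in the 6 arrays of co-cultures given E2, none of which entered the vehicle means. There 3130 probe sets (14.4%) passed, 1001 (4.59%) higher and 2129 (9.77%) lower. Without stromal E2 replicate 2 the total was 1972, and with the arrays centred on their 75th percentile 49.7% of the calls were higher in the epithelial layer in place of 32.0%. Of the 579 probe sets at least 2-fold higher under vehicle, 567 (97.9%) had the same sign under E2 and 336 (58.0%) passed in the same direction, and their median went from 1.60 to 1.07. Of the 689 at least 2-fold lower, 651 (94.5%) had the same sign and 466 (67.6%) passed, with medians of -1.40 and -0.91. None of the first and 1 of the second passed in the opposite direction. The share of all probe sets tested that kept their sign was not counted, so the shares of same sign have no yardstick here. The E2 arrays also entered the spread behind the vehicle calls. The probe sets were chosen by their difference under vehicle, so the medians of the treatments are given as a description and were not tested against each other. At least 2-fold in both treatments were 275 higher probe sets, 47.5% of those under vehicle and 62.9% of the 437 under E2, and 299 lower ones, 43.4% and 62.5% of 478. Krt8 differed by 4.15 ± 0.19 under E2, Cldn4 by 3.94 ± 0.24, Zeb1 by -0.88 ± 0.15 and Twist2 by -1.28 ± 0.41. The E2 epithelial arrays, with epithelial marker means from 9.98 to 10.3, lay below replicates 1 and 2 of vehicle and close to replicate 3, and the stromal marker mean was 10.9 in all 3 of them.

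The difference between the layers changed with treatment for 229 probe sets (1.05%) by the interaction test of limma, 160 (0.734%) toward the epithelial and 69 (0.317%) toward the stromal side under E2. This count moved with single arrays: it was 820 without epithelial vehicle replicate 3, 128 and 120 without stromal vehicle replicates 1 and 3, 106, 94 and 781 without epithelial E2 replicates 1, 2 and 3, and 106, 109 and 134 without stromal E2 replicates 1, 2 and 3. Of the 579 higher probe sets 13 changed, and of the 689 lower ones 65. Both sets were chosen by their difference under vehicle, which is also part of the interaction. These counts are therefore a description. Cxcl2, which differed by -3.62 ± 0.33 under vehicle, read 7.20, 7.34 and 6.20 in the epithelial and 7.33, 7.34 and 6.62 in the stromal arrays under E2, so that the layers overlapped (-0.18 ± 0.33, interaction adjusted p = 0.00637). Angpt1, a ligand of the endothelial receptor Tek, went from -2.46 ± 0.17 to -0.19 ± 0.17 (interaction adjusted p = 0.00232). Igf1, an insulin-like growth factor, was lower in the epithelial layer under vehicle (-1.09 ± 0.20) and measured 0.80 ± 0.20 under E2 (interaction adjusted p = 0.0088). The interaction kept its call without each of the 12 arrays for Cxcl2, Cxcl3, Angpt1, Igf1, Fabp4, Itga3, Col5a3, Mapre2, Doc2b, Chp2, Sh3bp4 and B3galt5. It did not for Pgr (-2.69 ± 0.24 under vehicle and -0.63 ± 0.24 under E2), Hgf (0.04 ± 0.30 under E2), Krt7 (2.06 ± 0.28), Msln (2.79 ± 0.18), Il1a (3.73 ± 0.28), Cdh11 (0.84 ± 0.10), Col11a1 (-0.10 ± 0.12), Lrat (-0.36 ± 0.25), Krt80 (-0.51 ± 0.15) and Lrrc55 (-1.42 ± 0.15), whose interaction adjusted p without single arrays reached 0.0534, 0.103, 0.122, 0.0894, 0.0651, 0.0546, 0.113, 0.109, 0.11 and 0.12.

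**Figure D5:**
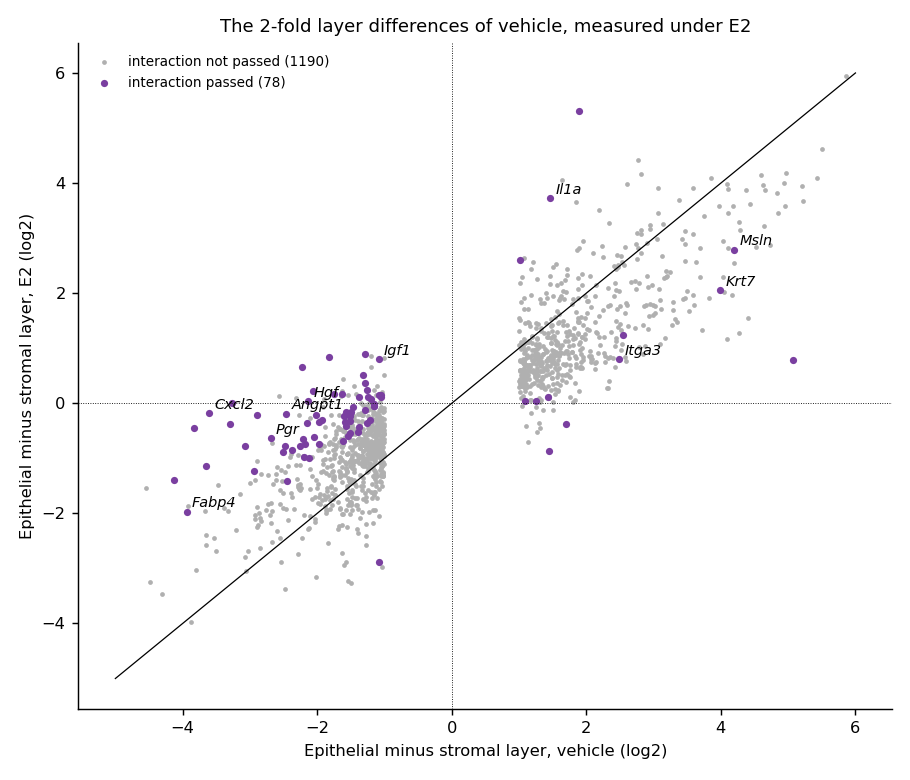
Difference between the layers (epithelial minus stromal, log2) under E2 (vertical axis) against vehicle (horizontal axis) for the 1268 probe sets that passed and differed at least 2-fold under vehicle; purple points passed the interaction test and the line marks equal differences. Most points keep their sign, and 65 of the 78 purple points are genes that were lower in the epithelial layer under vehicle. All points were chosen by their difference under vehicle, which is also part of the interaction.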

How the data were processed

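RNA of the 3 epithelial and 3 stromal vehicle arrays was compared, with the 6 arrays of the E2 groups in the same fit. The authors deposited log2 values from RMA, a normalization of Affymetrix arrays, as the submitters' processing notes name it; its version and the signal against background are not given in the sources used here, so the number of arrays limits the precision. Groups came from the labels. Of 35556 probe sets, 21789 had 1 gene symbol in the platform annotation, 1621 had several and 12146 had none; 21698 of the first matched RefSeq by gene identifier, and the rest kept the annotation's symbol. Where a gene had several probe sets (999 of 19938 genes), the one with the highest mean over the 12 arrays stands for it.

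The log2 values were fitted as deposited with limma 3.58.1 in R 4.3.3, 1 mean for each of 4 groups (8 residual and 3.6 prior degrees of freedom), with moderated tests, Benjamini-Hochberg adjustment over the 21789 and a threshold of 0.05. The interaction test compared the layer difference under E2 with that under vehicle. The fit was tested on simulated data. Named were the 15 probe sets of smallest p on each side that passed, differed at least 2-fold and did not overlap between the layers, leaving out predicted genes, microRNAs, olfactory receptors and unnamed clones; of each gene list up to 6 members in each direction by smallest p; and up to 4 that did not pass or ran against the rest. Marker genes, steroid receptors and ligand and receptor pairs could be named in any case. The gene lists and the comparison itself were chosen with earlier results of these data known, and so was this rule. Genes named outside it, such as those of the miR-200 family, were chosen after their values were seen.

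Labels give the layers shared replicate numbers. In the vehicle arrays the deviations of same-numbered layers from their group means correlated at 0.21, 0.19 and 0.14, so these numbers were taken as pairs and blocked fits were run; under E2 the correlations were -0.21, 0.23 and 0.00. Other alternatives were the 6 vehicle arrays alone, array weights, another prior, other scalings, low-signal filters, other probe sets, stricter thresholds and leaving out each array. Those for the E2 comparison, and leaving out each E2 array, were chosen after seeing the data. Promoter windows and microRNA sequences came from RefSeq (GRCm38.p6).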

Additional observations from a re-analysis of the deposited data

Results flagged for a closer look

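For 22 of the named genes the difference between the layers under E2 differed from that under vehicle by the interaction test of limma (adjusted p under 0.05 over all probe sets). The values below are the difference under E2 minus the difference under vehicle, on the log2 scale, from 3 arrays a group.

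Genes that were lower in the epithelial layer under vehicle made up the larger number. Many were named by their p-value from limma under vehicle, and that difference is part of the interaction, so this is a description. For the chemokines Cxcl2 and Cxcl3 the value was 3.43 and 2.69, and the layer differences under E2 were -0.18 ± 0.33 and -0.20 ± 0.25. For the growth factors Angpt1, Hgf and Igf1 it was 2.27, 2.17 and 1.89. Igf1 was lower in the epithelial layer under vehicle (-1.09 ± 0.20) and higher there under E2 (0.80 ± 0.20, adjusted p = 0.0168 by limma). For Pgr, the progesterone receptor, it was 2.06, for Fabp4, the fatty acid binding protein, 1.97, and for Lrat, which esterifies retinol, 1.79. B3galt5 gave 1.91, Chp2 1.62, Doc2b 1.57, Col5a3 1.39, Mapre2 1.24, Lrrc55 1.02 and Sh3bp4 0.93.

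Genes that were higher in the epithelial layer under vehicle went both ways. The interleukin Il1a gave 2.27, with a layer difference of 3.73 ± 0.28 under E2. Krt7 gave -1.93, the integrin subunit Itga3 -1.69, the mesothelial gene Msln -1.40, Krt80 -1.07 and the collagen Col11a1 -0.88. The mesenchymal cadherin Cdh11, which did not pass under vehicle (-0.02 ± 0.10), gave 0.85, with a layer difference of 0.84 ± 0.10 under E2.

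The interaction adjusted p lay between 0.00114 for B3galt5 and 0.0405 for Krt7. It stayed under 0.05 without each of the 12 arrays in turn for B3galt5, Angpt1, Doc2b, Fabp4, Mapre2, Cxcl2, Cxcl3, Chp2, Col5a3, Igf1, Itga3 and Sh3bp4, and reached 0.0534 for Pgr and 0.122 for Krt7. Epithelial markers were at lower means in the epithelial arrays under E2 (9.98 to 10.3) than in vehicle replicates 1 and 2 (11.2 and 11.8). Vehicle replicate 3 (10.1) lay within the range of the E2 arrays. The part of these marker levels in the values above was not tested.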

How the results depend on the processing

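Under vehicle 4954 probe sets passed. The count was 3277 with the replicate number as a block in the 6 vehicle arrays and 4731 with the co-culture as a block in all 12 (3653 and 4954 without a block in the same arrays), 2787 at an adjusted p under 0.01, and 291 with limma's treat against a log2 difference of 1, which also is the value for the at least 2-fold count of 1268. Leaving out 1 vehicle array in turn gave 3416 to 6658, and 1159 to 1469 at least 2-fold. Leaving out 1 of the 12 arrays gave 94 to 820 for the interaction in place of 229, and 1972 to 4472 for the difference under E2 in place of 3130. Every other alternative run kept these 4 counts within 1.5 times. The cause was not tested. Of 219 named genes that passed under vehicle, 209 kept the call without each array in turn, 204 with the block in the vehicle arrays and 216 with the block in all 12, and none reversed in any alternative; the blocks changed no other named call than those given above. With treat 97 kept it.

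Signal over background was not measured here, so differences of dim probe sets are least certain; a minimum mean signal of 7 left 4456 calls. The fit gives all groups 1 spread although the epithelial arrays varied more (array weights of 0.45 for the epithelial and 1.6 for the stromal vehicle arrays); with weights 4222 passed. With 3 arrays a layer, and labels that name neither animals nor cultures, the p-values describe these samples.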
